A study of Mus musculus with 28 samples.

Results

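The genes described here are the mouse translation initiation factor genes, taken as every gene of the deposited RNA table whose symbol begins with Eif followed by a digit from 1 to 6, without the pseudogenes that carry -ps in their name. The rule found 56 of the 55450 genes in the table. RNA was measured in C10 cells, a line derived from the mouse Pre-B line HAFTL that carries a transgene of C/EBPα joined to the hormone-binding domain of the estrogen receptor, so that C/EBPα enters the nucleus when β-estradiol is given. All 4 groups carry the transgene and come from this 1 line, and no library of cells without it was analysed here. Uninduced cells (0h) were compared with cells 1h, 12h and 48h after addition of 100 nM β-estradiol together with 10 nM IL-3 and CSF-1, with 3 libraries at each time point, so the hormone, the cytokines and C/EBPα cannot be told apart. Promoter Capture Hi-C, which lists the DNA fragments that contact promoter fragments, was available as 1 list of interactions for each of the same time points.

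Initiation is the step of translation at which a ribosome is brought to an mRNA and set on its start codon. The cap of the mRNA is bound by eIF4E, which together with the scaffold eIF4G and the RNA helicase eIF4A forms the eIF4F complex, and the eIF4E-binding proteins hold eIF4E away from eIF4G until the kinase mTOR phosphorylates them. The small ribosomal subunit arrives loaded with eIF3, eIF1, eIF1A, eIF5 and a ternary complex of eIF2, GTP and the initiator tRNA. eIF2 is recharged with GTP by eIF2B, and that step is blocked when a stress kinase phosphorylates the alpha subunit of eIF2. Fast-dividing cells carry much of this machinery, and the transcription factor MYC, which binds the E-box sequence CACGTG, is a known activator of several of its genes.

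After 48h most initiation factor genes were lower than at 0h, and a small group moved the other way. Of the 53 members that passed the filter on low values (a mean of at least 0.1 TPM, a measure of transcript abundance that allows for gene length), 35 fell, where 22% of the 16415 genes tested fell, and 4 rose, where 24.5% of all genes rose (limma, Benjamini-Hochberg adjusted p below 0.05 over all genes). Beyond a log2 fold change of 1, 28 fell and 2 rose, against 17.6% and 19.6% of all genes. Members with a mean of at least 1 TPM numbered 51, of which 35 fell and 3 rose, and of the 9331 genes at that level 32.1% fell and 27.5% rose. The median log2 fold change of the 53 members was -1.05, and that of all genes tested was 0.07. The 4 that rose were Eif2ak2, Eif4e3, Eif4g3 and Eif2s3y, which are respectively a stress kinase, a cap-binding protein, a scaffold and the Y-chromosomal copy of an eIF2 subunit.

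Values below are scaled TPM, the deposited TPM divided by a size factor for the library, because a ribosomal RNA locus held between 70.3% and 82.9% of all TPM and its share differed between libraries. The sum over the members lay between 1076 and 1087 in the 0h libraries and between 901 and 917 in those of 1h. It lay between 743 and 771 at 12h and between 573 and 620.3 at 48h, so no 2 time points overlapped on this scale. As deposited, the sum was 903 to 1120 at 0h, 1195 to 1408 at 1h, 792 to 1029 at 12h and 359.9 to 445 at 48h, so that 1h lay above 0h, 12h overlapped 0h and 48h lay below all. The members' share of all TPM outside the 20 most abundant genes, which needs no size factor, was 0.992% to 1.22% at 0h, 0.907% to 1.14% at 1h, 0.809% to 0.872% at 12h and 0.458% to 0.678% at 48h, with 0h and 1h overlapping. These are relative levels in bulk RNA, where fewer cells of a type and less RNA per cell cannot be told apart. The cells carried the markers of their label. The summed scaled TPM of 10 Pre-B markers was 332 to 359 in the 0h libraries and 44 to 52.3 in the 48h libraries. For 10 macrophage markers it was 10.05 to 13.4 and 1424 to 1705. All 10 Pre-B markers fell and 9 of the 10 macrophage markers rose. Cd14, Msr1 and Adgre1 were at 0 in the 0h libraries and Rag1 in the 48h libraries. The part of these shifts in the initiation factor results was not tested.

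**Figure D1:**
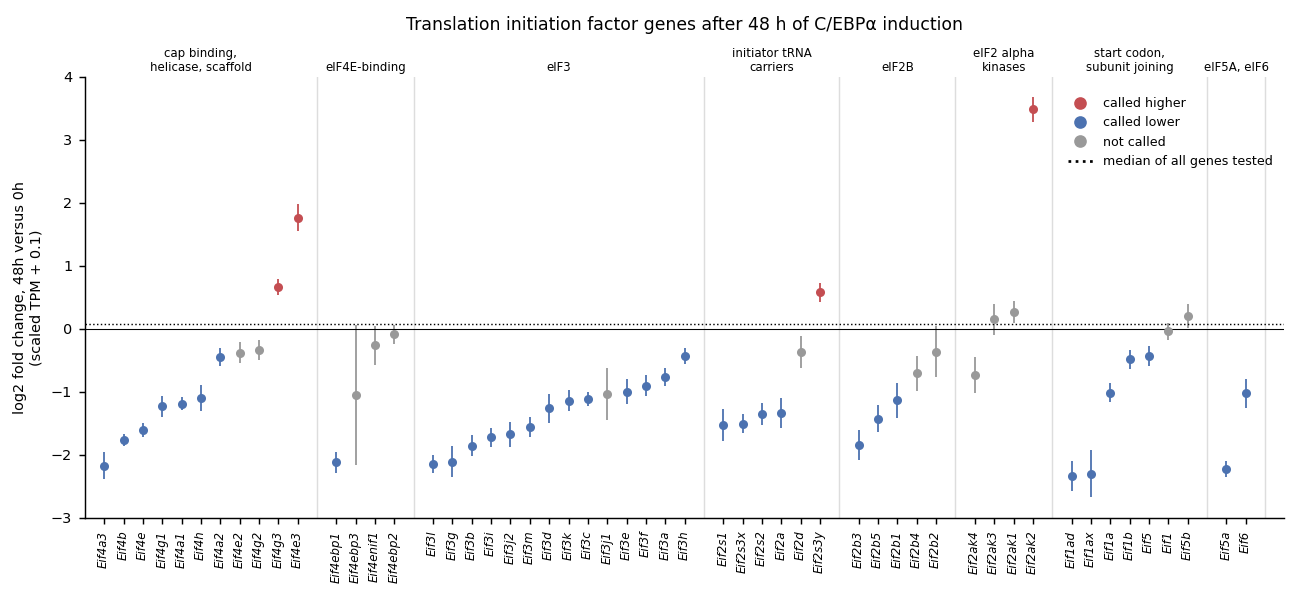
Log2 fold change at 48h versus 0h (vertical axis, scaled TPM + 0.1) for each of the 53 tested members (horizontal axis, grouped by role), with bars for the standard error and colours for the call. Most members lie below the dotted median of all genes at 0.07, with 35 called lower, and Eif2ak2 stands highest at 3.48.

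The letters CACGTG, spelled on both strands and identical on each, stood in the 250 bases before a RefSeq start of 9 of the 44 members that had a promoter sequence (20.5%), and in 6.86% of all 27025 genes with one, tested or not. A stretch of 30 bases around the match nearest to a start is shown for the 8 of them that were tested, to let the flanks be compared, with the match in capitals (build GRCm38.p6, gene strand, 5′ to 3′).
Eif4e, chr3:138527192-138527221, + strand, 64 bases before the start: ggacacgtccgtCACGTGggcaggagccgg
Eif4g1, chr16:20672661-20672690, + strand, 54 bases before the start: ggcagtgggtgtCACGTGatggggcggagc
Eif4a1, chr11:69672595-69672624, - strand, 189 bases before the start: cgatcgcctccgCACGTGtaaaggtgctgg
Eif4h, chr5:134639488-134639517, - strand, 96 bases before the start: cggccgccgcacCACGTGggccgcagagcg
Eif5a, chr11:69921443-69921472, - strand, 74 bases before the start: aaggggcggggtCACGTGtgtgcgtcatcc
Eif3k, chr7:28981915-28981944, - strand, 44 bases before the start: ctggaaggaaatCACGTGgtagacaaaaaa
Eif3f, chr7:108934335-108934364, + strand, 68 bases before the start: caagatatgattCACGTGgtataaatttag
Eif1b, chr9:120492570-120492599, + strand, 24 bases before the start: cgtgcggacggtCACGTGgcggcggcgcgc
All 8 fell at 48h, as did 19 of the 34 tested members whose promoter lacks the letters (55.9%). Over all tested genes with a promoter, 30.5% of the 935 with the letters and 27.3% of the 8580 without fell. Against those 935 with and 8580 without, the tested members counted 8 with and 34 without. The call on Eif1b was lost in 5 of the 21 alternatives. Eif4e has 2 listed starts and the match belongs to the downstream one, which holds a further match 228 bases before it. Eif5a has 6 listed starts, and its match is counted from the nearest. The same windows were searched on both strands for TTGCNNAA, a pattern of the kind C/EBP factors bind, which was present in 3 of the 44 members (6.82%, against 10.8% of all genes), and it stood before Eif4e, Eif4g1 and Eif2d. A pattern of the kind interferon-regulated promoters carry, GAAA and GAAA with 2 bases between, was present in 2 (4.55%, against 3.46%), Eif2s1 and Eif3a. These matches are descriptions of the letters and were not tested as binding sites.

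The cap-binding and helicase genes fell at 48h for 7 of 11 tested and rose for 2, where 22% and 24.5% of all genes did. Eif4e encodes the main cap-binding protein (chr3:138526179-138559696, + strand), and its scaled TPM was 18.8, 17.8 and 17.1 at 0h, 13.3, 12.7 and 12.3 at 1h, 10.4, 10.9 and 10.2 at 12h and 5.69, 6.26 and 5.52 at 48h. On this scale each later time point lay wholly below the one before it. As deposited, Eif4e had log2 fold changes of 0.17 at 1h and -0.43 at 12h, and neither was called. On the log2 scale it changed by -0.77 ± 0.11, adjusted p = 2.66e-04 at 12h and by -1.61 ± 0.11, adjusted p = 3.48e-07 at 48h (limma, ± SE, n = 3 per time point, here and for all members below). Eif4e2, a cap-binding relative that does not bind eIF4G and is known as a repressor, stayed closer to its starting level, with 8.84, 10.4 and 10.6 at 0h and 8.62, 8.35 and 6.15 at 48h. Its 48h values were all below its 0h values but it was not called (log2 fold change -0.37 ± 0.16, adjusted p = 0.0795). With the TPM as deposited Eif4e2 was called lower (-0.78, adjusted p = 0.00138). Within each library the ratio of Eif4e to Eif4e2 was 2.13, 1.71 and 1.62 at 0h and 0.66, 0.75 and 0.898 at 48h, so that Eif4e was the more abundant in every 0h library and the less abundant in every 48h library (exact permutation test, two-sided, p = 0.1, the smallest that 3 against 3 allows).

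Eif4e3, another cap-binding relative (chr6:99625135-99666771, - strand), went the opposite way. Its scaled TPM was 0.466, 0.478 and 0.464 at 0h, 0.456, 0.504 and 0.309 at 1h, 1.54, 1.29 and 1.26 at 12h and 1.59, 2.1 and 1.85 at 48h. It was low at 0h and 1h and higher in all 6 later libraries, by 1.36 ± 0.21, adjusted p = 7.07e-04 at 12h and 1.77 ± 0.21, adjusted p = 4.44e-05 at 48h on the log2 scale. It overlaps the gene model Gm20696 on the same strand, so reads of the 2 may not be separable. Eif4e1b was listed at 0 in every library.

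The scaffolds changed unequally. Eif4g1, the main eIF4G, was at 38.2, 36.6 and 37.1 at 0h, 35.6, 37.8 and 37.6 at 1h, 25.3, 32 and 29.96 at 12h and 13.6, 14 and 20.8 at 48h. It was level at 1h on the scaled values and then lower (-1.23 ± 0.16, adjusted p = 7.90e-05 at 48h). The deposited log2 fold change of Eif4g1 at 1h was 0.65 and was not called (adjusted p = 0.0566). Its close relative Eif4g3 was at 7.04, 5.52 and 7.07 at 0h, 7.43, 7.08 and 7.7 at 1h, 8.36, 7.3 and 7.75 at 12h and 10.9, 9.76 and 10.4 at 48h and rose (0.66 ± 0.13, adjusted p = 0.00149). All 48h libraries of Eif4g3 lay above those of the other time points, but with the TPM as deposited its log2 fold change was 0.25 and it was not called. Eif4g2, a scaffold that lacks the eIF4E-binding site and was the most abundant of the 3, was at 109.9, 107 and 90.4 at 0h and 86.1, 93.8 and 64.9 at 48h, with overlapping groups (-0.34 ± 0.16, adjusted p = 0.102). On the deposited scale Eif4g2 was called lower at 48h (-0.75, adjusted p = 0.0108). The ratio of Eif4g1 to Eif4g2 was 0.348, 0.343 and 0.41 at 0h and 0.158, 0.149 and 0.321 at 48h. The groups did not overlap, though 48h replicate 3 stood near the 0h values (exact permutation p = 0.1, two-sided).

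Among the helicases, Eif4a1 was at 63.8, 61.1 and 62.3 at 0h, 58.5, 61.3 and 59.4 at 1h, 45.4, 49.6 and 49.1 at 12h and 25.8, 27.4 and 29.1 at 48h. Its 48h libraries lay below every other library (-1.18 ± 0.10, adjusted p = 1.85e-06). Eif4a2, whose product is nearly interchangeable with that of Eif4a1 in the complex, was at 36, 36.8 and 36.4 at 0h, 30.8, 37.1 and 31 at 1h, 23.9, 23.1 and 27.4 at 12h and 25.9, 32.6 and 22.5 at 48h. Its change was smaller, and its 12h and 48h groups overlapped (-0.45 ± 0.15, adjusted p = 0.0265 at 48h). The call on Eif4a2 was lost under several alternatives, among them leaving out any of 0h replicate 2, 0h replicate 3, 48h replicate 1 or 48h replicate 3 (adjusted p of 0.0594 to 0.0886). The ratio of Eif4a1 to Eif4a2 was 1.77, 1.66 and 1.71 at 0h and 0.994, 0.842 and 1.29 at 48h, lower in each 48h library (exact permutation p = 0.1, two-sided). At 12h, before that fall, it was 1.90, 2.15 and 1.79, above every 0h library. Eif4a1 shares 68.8% of its transcript with a pseudogene. How reads were divided between such copies was not tested, and the ratio may depend on it. Eif4a3, the helicase of the exon junction complex, was at 20.4, 16.2 and 21.6 at 0h, 16.4, 15.6 and 17.7 at 1h, 7.7, 9.17 and 8.79 at 12h and 2.88, 4.46 and 5.75 at 48h. It was lower at 12h (-1.17 ± 0.22, adjusted p = 0.00203) and lower still at 48h (-2.17 ± 0.22, adjusted p = 9.60e-06).

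Eif4b and Eif4h encode cofactors that stimulate the helicase. Eif4b was at 35.5, 34.2 and 36.5 at 0h, 26.6, 26 and 28 at 1h, 20.6, 19.1 and 20.7 at 12h and 10.2, 10.2 and 10.8 at 48h. On this scale each time point lay below the one before it with little spread, and 48h differed from 0h by -1.76 ± 0.10, adjusted p = 8.67e-08. As deposited, the log2 fold change of Eif4b at 1h was 0.26 and it was not called. Eif4h was at 17.6, 19.3 and 20.2 at 0h, 16.1, 17.4 and 21 at 1h, 11.8, 13.7 and 15.9 at 12h and 7.38, 7.29 and 12.8 at 48h. All 48h values lay below all 0h values (-1.10 ± 0.21, adjusted p = 0.00138).

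The eIF4E-binding proteins changed unequally. Eif4ebp1 (chr8:27260329-27276674, + strand) was at 17.3, 21.3 and 19.3 at 0h, 14.3, 12.5 and 11.8 at 1h, 16.1, 15 and 14.8 at 12h and 3.52, 4.15 and 5.64 at 48h. It was lowest in the 48h libraries, by -2.12 ± 0.17, adjusted p = 1.54e-06 against 0h. Most of that fall came after 12h (-1.79 ± 0.17, adjusted p = 2.17e-05 at 48h against 12h). Eif4ebp2 was at 9.87, 11.9 and 12.2 at 0h, 13.1, 12.7 and 14.3 at 1h, 12.6, 11.8 and 10.5 at 12h and 10.1, 9.2 and 12.9 at 48h. The 12h and 48h groups overlapped 0h, and it was not called at any time point against 0h (-0.09 ± 0.15, adjusted p = 0.683 at 48h). On the deposited scale Eif4ebp2 was called higher at 1h (0.90, adjusted p = 0.00361) and lower at 48h (-0.49, adjusted p = 0.0335). The ratio of Eif4ebp2 to Eif4ebp1 within a library was 0.572, 0.558 and 0.632 at 0h and 2.87, 2.21 and 2.28 at 48h, a log2 difference of 2.06. Between 0h and 48h the more abundant of the pair changed from Eif4ebp1 to Eif4ebp2 (exact permutation p = 0.1, two-sided). The path was not steady, with ratios of 0.917, 1.01 and 1.22 at 1h and 0.778, 0.788 and 0.709 at 12h. The ratio of Eif4ebp1 to Eif4e, both of which fell, was 0.916, 1.19 and 1.13 at 0h and 0.619, 0.664 and 1.02 at 48h, with overlapping values (exact permutation p = 0.2). In between, at 12h, it was 1.55, 1.38 and 1.46, above every 0h library. Eif4enif1, the 4E transporter, was not called (-0.26 ± 0.31, adjusted p = 0.525), and Eif4ebp3 was near the floor of measurement, with 0 in 1 library at each of 0h, 12h and 48h.

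**Figure D2:**
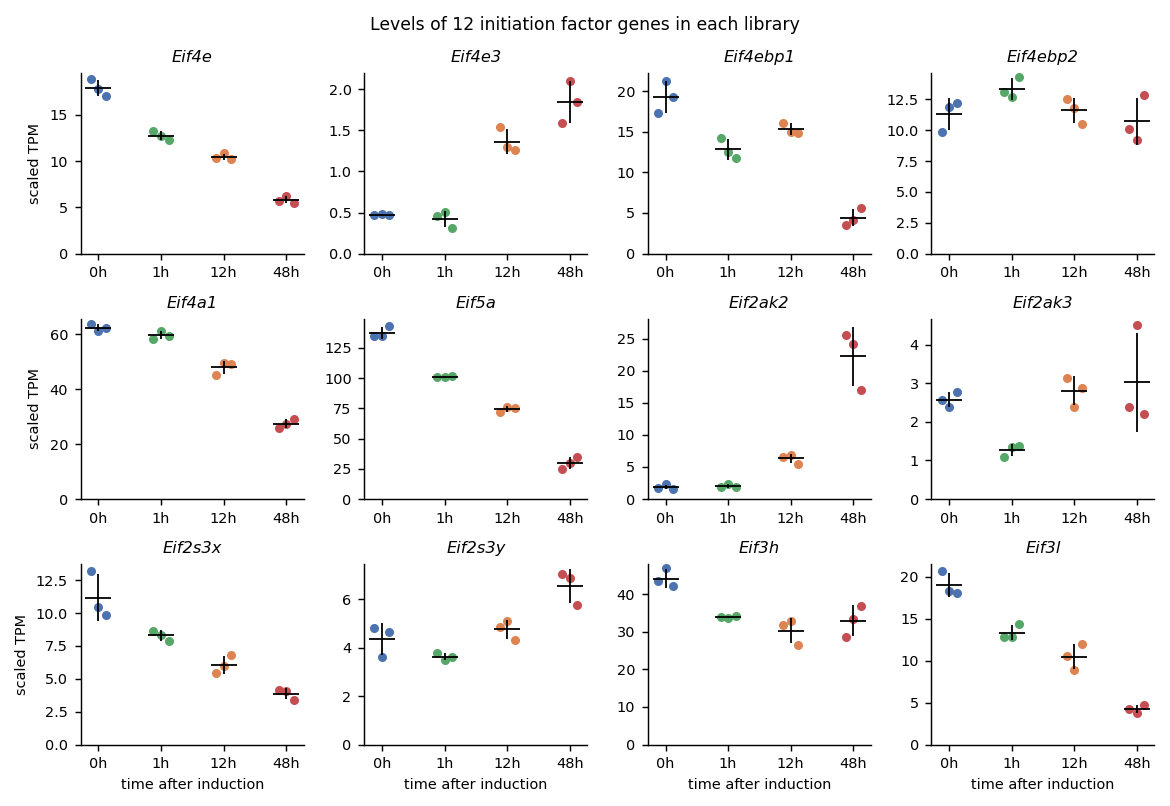
Scaled TPM (vertical axes, each starting at 0) of 12 members in each library by time after induction (horizontal axes), with points for libraries and a black bar with whiskers for the mean ± SD of 3. Eif4e, Eif4ebp1, Eif4a1, Eif5a, Eif2s3x and Eif3l are lowest at 48h, Eif2ak2 and Eif4e3 are highest there, and Eif2ak3 is lowest at 1h.

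eIF3, the largest initiation factor, is built of many subunits and holds the small ribosomal subunit and eIF4G together. Of its 14 tested genes, 13 fell at 48h and none rose, where 22% and 24.5% of all genes did. The fold changes ran from -2.15 to -0.43 with a median of -1.20. The b, g and i subunits form a module of their own. Eif3b was at 19.3, 21.9 and 24.1 at 0h, 18, 17.3 and 20.04 at 1h, 9.28, 13 and 13.2 at 12h and 5.23, 5.73 and 6.9 at 48h. Eif3g was at 16.2, 15 and 18.5 at 0h, 13.4, 8.69 and 12.9 at 1h, 8.26, 10.6 and 8.24 at 12h and 2.5, 4.41 and 4.75 at 48h. Eif3i was at 20.3, 23 and 24.7 at 0h, 14.9, 14.8 and 18 at 1h, 13, 15.4 and 14.2 at 12h and 5.88, 6.71 and 7.89 at 48h. All 3 were lowest at 48h, where no library reached the 12h values. Eif3b changed by -1.86 ± 0.17, adjusted p = 4.16e-06 at 48h. Eif3g changed by -2.11 ± 0.25, adjusted p = 3.35e-05. Eif3i changed by -1.72 ± 0.15, adjusted p = 2.47e-06.

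Eif3l and Eif3m encode subunits of the structural core. Eif3l showed the largest fall of the complex, at 20.7, 18.3 and 18.1 at 0h, 12.8, 12.8 and 14.4 at 1h, 10.6, 8.89 and 12 at 12h and 4.22, 3.72 and 4.71 at 48h. Eif3m was at 13, 13.9 and 10.9 at 0h, 8.59, 8.25 and 8.7 at 1h, 4.93, 6.48 and 6.33 at 12h and 4.48, 3.5 and 4.75 at 48h. In both genes every 48h library lay below every 12h library, and every 12h library below every 1h library. Eif3l changed by -2.15 ± 0.14, adjusted p = 3.66e-07 at 48h. Eif3m changed by -1.55 ± 0.16, adjusted p = 1.26e-05.

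Of the other core subunits, Eif3k was at 16.8, 23.4 and 25.6 at 0h, 17.2, 14.1 and 14.6 at 1h, 14.6, 15.7 and 13.6 at 12h and 8.7, 10.4 and 10.2 at 48h. Eif3c was at 29.8, 28.3 and 27.8 at 0h, 24.3, 22.5 and 23.1 at 1h, 23, 23 and 24.1 at 12h and 13.5, 14.6 and 11.5 at 48h. The mRNA-cap-contacting subunit Eif3d was at 31.6, 32.2 and 25.8 at 0h, 23.2, 20.1 and 23.2 at 1h, 19.3, 24 and 15.1 at 12h and 9.23, 17.7 and 11.6 at 48h. All 3 were lower in each 48h library than in any 0h library. Eif3k changed by -1.14 ± 0.16, adjusted p = 1.72e-04 at 48h. Eif3c changed by -1.12 ± 0.11, adjusted p = 9.48e-06. Eif3d changed by -1.26 ± 0.23, adjusted p = 9.81e-04. Eif3j2, which encodes the loosely bound j subunit, was at 7.37, 6.2 and 6.44 at 0h, 5.58, 5.25 and 5.33 at 1h, 4.41, 4.22 and 3.73 at 12h and 1.42, 2.54 and 2.27 at 48h. Its 48h and 0h groups did not overlap (-1.67 ± 0.19, adjusted p = 3.21e-05). Its near-copy Eif3j1 was not called (-1.03 ± 0.41, adjusted p = 0.0587), and the whole Eif3j2 transcript is shared with Eif3j1, of whose longer transcript 43.8% is shared with Eif3j2.

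The smallest changes of the complex were those of Eif3a (log2 fold change -0.76), Eif3f (-0.90), Eif3e (-0.998) and Eif3h. Eif3h was the most abundant of the subunits, at 43.4, 47 and 42.2 at 0h, 33.9, 33.7 and 34.1 at 1h, 31.7, 32.8 and 26.5 at 12h and 28.7, 33.4 and 36.8 at 48h. On this scale the 1h, 12h and 48h libraries were alike below 0h, and those of 12h and 48h overlapped (-0.43 ± 0.13, adjusted p = 0.0152 at 48h). That call was lost without 0h replicate 2 (adjusted p = 0.0517) or without 48h replicate 1 (adjusted p = 0.0784). The ratio of Eif3l to Eif3h was 0.476, 0.39 and 0.43 at 0h and 0.147, 0.112 and 0.128 at 48h (exact permutation p = 0.1, two-sided). The groups did not overlap, and the pair was chosen after its values were seen.

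The eIF2 subunits fell for alpha, beta and the X-linked gamma gene. Eif2s1, the alpha subunit that the stress kinases phosphorylate, was at 8.99, 9.33 and 6.83 at 0h, 9.27, 7.72 and 5.14 at 1h, 4.58, 3.05 and 4.77 at 12h and 3.28, 2.93 and 2.34 at 48h. Eif2s2, the beta subunit, was at 17.9, 19.2 and 16.2 at 0h, 13.2, 13.3 and 10.5 at 1h, 10.7, 9.61 and 9.88 at 12h and 8.35, 7.5 and 5.15 at 48h. Both were lower in every 12h and 48h library than in any 0h library. Eif2s1 changed by -1.02 ± 0.25, adjusted p = 0.0100 at 12h and by -1.52 ± 0.25, adjusted p = 4.28e-04 at 48h. As deposited, its 12h fall was not called (-0.69, adjusted p = 0.118). Eif2s2 changed by -1.35 ± 0.18, adjusted p = 8.20e-05 at 48h.

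The gamma subunit, which binds GTP and the tRNA, has a gene on each sex chromosome. Eif2s3x (chrX:94188707-94212862, - strand) was at 13.2, 10.5 and 9.82 at 0h, 8.67, 8.36 and 7.89 at 1h, 5.45, 5.95 and 6.78 at 12h and 4.13, 4.07 and 3.37 at 48h. On this scale it fell stepwise with no overlap between successive time points (-1.51 ± 0.15, adjusted p = 9.97e-06 at 48h). The step from 0h to 1h was not called (adjusted p = 0.116). As deposited, the log2 fold change of Eif2s3x at 1h was 0.24 (adjusted p = 0.449). Eif2s3y (chrY:1010543-1028847, + strand) was at 4.83, 3.62 and 4.64 at 0h, 3.77, 3.5 and 3.6 at 1h, 4.84, 5.1 and 4.32 at 12h and 7.04, 6.87 and 5.75 at 48h. All 48h libraries lay above the rest (0.58 ± 0.15, adjusted p = 0.00791). The rise of Eif2s3y was not called with the TPM as deposited (log2 fold change 0.18), nor in the fit of only the 0h and 48h libraries (limma adjusted p = 0.0539). The ratio of the X copy to the Y copy, which no scaling touches, was 2.74, 2.89 and 2.12 at 0h and 0.586, 0.592 and 0.586 at 48h. The log2 difference was -2.12 (exact permutation p = 0.1, two-sided), and the pair was chosen after its values were seen. The Y copy was therefore the less abundant in all 0h libraries and the more abundant in all 48h libraries.

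Of the factors that can carry initiator tRNA without eIF2, Eif2a was at 9.22, 9.34 and 8.35 at 0h, 7.14, 6.53 and 5.47 at 1h, 6.95, 6.86 and 4.77 at 12h and 3.6, 4.89 and 2.41 at 48h, with each 48h library below every 0h and 1h library. Eif2a changed by -1.33 ± 0.24, adjusted p = 8.00e-04 at 48h. Eif2d was called lower at 12h (-0.90 ± 0.25, adjusted p = 0.018) but not at 48h (-0.37 ± 0.25, adjusted p = 0.254). As deposited, it was the other way round for Eif2d, not called at 12h (-0.58, adjusted p = 0.137) and called lower at 48h (-0.75, adjusted p = 0.0442).

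eIF2B, the exchange factor for eIF2, fell for 3 of its 5 subunits at 48h, where 22% of all genes fell. The catalytic epsilon subunit Eif2b5 was at 5.57, 5.04 and 6.16 at 0h, 3.52, 3.69 and 4.92 at 1h, 2.66, 3.56 and 2.98 at 12h and 1.58, 1.94 and 2.65 at 48h. Its partner gamma, Eif2b3, was at 5.14, 3.6 and 5.74 at 0h, 3.7, 3.73 and 4.25 at 1h, 2.09, 2.84 and 2.95 at 12h and 1.07, 1.06 and 1.73 at 48h. The regulatory alpha subunit Eif2b1 was at 3.82, 5.04 and 3.81 at 0h, 4.09, 3.07 and 4.33 at 1h, 2.73, 3.44 and 3.62 at 12h and 1.82, 2.89 and 1.2 at 48h. In all 3 the 48h values lay below the 0h ones, with a wide spread at 48h for Eif2b1. Eif2b5 changed by -1.43 ± 0.21, adjusted p = 1.97e-04 at 48h. Eif2b3 changed by -1.84 ± 0.24, adjusted p = 7.03e-05, the largest change of the 5. Eif2b1 changed by -1.14 ± 0.28, adjusted p = 0.00589. The regulatory beta subunit Eif2b2 (-0.36 ± 0.41, adjusted p = 0.507) and delta subunit Eif2b4 (-0.70 ± 0.28, adjusted p = 0.0586) were not called, and Eif2b2 ranged from 3.80 to 11.6 at 0h.

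The 4 eIF2 alpha kinases each answer a different stress, and at 48h the test called the one that senses double-stranded RNA higher on both scales and the amino acid sensor lower with the TPM as deposited. Eif2ak2, which encodes PKR and is known to be induced by interferon (chr17:78852564-78882573, - strand), was at 1.73, 2.28 and 1.64 at 0h, 1.84, 2.32 and 1.86 at 1h, 6.6, 6.92 and 5.5 at 12h and 25.5, 24.2 and 17 at 48h. The 0h and 1h groups overlapped, all 12h libraries lay above them and all 48h libraries above those. Eif2ak2 changed by 1.71 ± 0.20, adjusted p = 7.43e-05 at 12h and by 3.48 ± 0.20, adjusted p = 1.03e-07 at 48h, an 11.2-fold rise. It was the largest change of any member in either direction. The span of Eif2ak2 overlaps that of the noncoding gene Gm26637 on the opposite strand.

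Eif2ak3, the endoplasmic reticulum kinase PERK, dipped and came back on the scaled values. Its scaled TPM was 2.57, 2.39 and 2.77 at 0h, 1.08, 1.34 and 1.36 at 1h, 3.13, 2.39 and 2.89 at 12h and 2.38, 4.5 and 2.21 at 48h. All 1h libraries were lower than any other library on this scale. Eif2ak3 changed by -0.98 ± 0.25, adjusted p = 0.0302 at 1h against 0h, and by 1.09 ± 0.25, adjusted p = 0.00967 at 12h against 1h. The fall at 1h was not called when any of the 0h or 1h libraries was left out. Neither the fall at 1h (-0.35, limma adjusted p = 0.359) nor the rise from 1h to 12h (0.79, adjusted p = 0.0598) was called as deposited. Deposited values of 48h replicates 1 and 3 (1.49 and 1.66 TPM) lay below those of all 1h libraries (lowest 1.69). Eif2ak4, the amino acid sensor GCN2, was at 3.03, 3.4 and 3.74 at 0h, 1.94, 1.75 and 1.67 at 1h, 2.11, 3.06 and 1.2 at 12h and 1.63, 2.47 and 1.96 at 48h. The 1h and 48h libraries lay below 0h without passing the limma test (adjusted p = 0.0758 at 1h and 0.0544 at 48h). With the TPM as deposited Eif2ak4 was called lower at 48h (-1.12, adjusted p = 0.00612). Eif2ak1, the heme-regulated kinase, was at 2.1, 1.63 and 2.48 at 0h, 1.7, 1.94 and 1.89 at 1h, 2.64, 2.83 and 2.49 at 12h and 2.66, 2.5 and 2.3 at 48h. Its 0h and 48h groups overlapped (0.27 ± 0.17, adjusted p = 0.231). On the deposited scale Eif2ak1 was called higher at 12h (0.69, adjusted p = 0.0177).

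Of the 7 genes grouped under start codon recognition and subunit joining, 5 fell and none rose at 48h, where 22% and 24.5% of all genes did. The 7 and the 5 include Eif1ad, whose part in these steps is not established here. eIF1A, which is needed for scanning along the mRNA, is encoded by Eif1a and Eif1ax. Eif1ax was at 9.87, 17.2 and 16.5 at 0h, 8.55, 7.998 and 15 at 1h, 6.69, 4.29 and 7.03 at 12h and 2.41, 1.88 and 4.75 at 48h, with 1 library at each of 0h, 1h and 48h far from the other 2 of its group. Eif1ax changed by -1.25 ± 0.37, adjusted p = 0.0248 at 12h and by -2.30 ± 0.37, adjusted p = 3.70e-04 at 48h. As deposited, its 12h fall was not called (-0.92, adjusted p = 0.0833). Eif1a was at 7.79, 7.95 and 7.03 at 0h, 7.75, 6.96 and 8.51 at 1h, 7.57, 7.38 and 7.23 at 12h and 4.54, 3.04 and 3.69 at 48h. It was level until 12h on the scaled values and lower in all 48h libraries (-1.01 ± 0.15, adjusted p = 2.48e-04). The deposited TPM called Eif1a higher at 1h (0.68, adjusted p = 0.0168). The ratio of Eif1a to Eif1ax went from 0.789, 0.462 and 0.425 to 1.89, 1.61 and 0.776, with overlapping values (exact permutation p = 0.2, two-sided). Eif1ad, named for its eIF1A-like domain, was at 4.81, 8.68 and 6.19 at 0h, 3.58, 4.24 and 5.35 at 1h, 2.37, 2.8 and 3.14 at 12h and 1.15, 0.99 and 1.45 at 48h. It had the largest fall of any member (-2.34 ± 0.24, adjusted p = 1.21e-05).

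Eif1, which guards start codon choice and was among the most abundant members, was at 87, 86.4 and 76.3 at 0h, 84.8, 94.9 and 75.2 at 1h, 57.2, 56.5 and 70.4 at 12h and 76.2, 82.6 and 84 at 48h. On this scale the 12h libraries lay below all others (-0.44 ± 0.13, adjusted p = 0.0248), and 48h overlapped 0h (-0.04 ± 0.13, adjusted p = 0.848). As deposited, Eif1 did not dip and recover. It changed by -0.11 at 12h (adjusted p = 0.764) and by -0.45 at 48h (adjusted p = 0.130), and neither was called. Its relative Eif1b fell slightly (-0.48 ± 0.15, adjusted p = 0.0234), and the call was lost without 0h replicate 1, without 0h replicate 3 or without 48h replicate 2 (limma adjusted p of 0.0543 to 0.0785). Eif5, which makes eIF2 hydrolyse its GTP, was at 40.04, 30.7 and 35.5 at 0h, 24.8, 21.8 and 21.1 at 1h, 22.8, 22.8 and 20.6 at 12h and 30.3, 28.7 and 20.7 at 48h, lowest at 1h and 12h. It was called at 1h (-0.64 ± 0.16, adjusted p = 0.0272) and at 12h (-0.67 ± 0.16, adjusted p = 0.00822), and its call at 48h (-0.42 ± 0.16, adjusted p = 0.0485) was lost in 15 of the 21 alternatives. As deposited, Eif5 was called neither at 1h (0.019, adjusted p = 0.962) nor at 12h (-0.34, adjusted p = 0.207). Eif5b, the GTPase that joins the ribosomal subunits, was not called at any time point against 0h (0.20 ± 0.19, adjusted p = 0.406 at 48h). On the deposited scale Eif5b was called higher at 1h (0.79, adjusted p = 0.0173) and at 12h (0.67, adjusted p = 0.0283).

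Eif5a, the most abundant member at 0h whose product carries the modified lysine hypusine, acts mainly in elongation (chr11:69916714-69921958, - strand). It was at 135, 135 and 143 at 0h, 101, 101 and 102 at 1h, 71.7, 75.9 and 75.6 at 12h and 24.7, 29.7 and 34.7 at 48h. On this scale a clear gap lay between each time point and the next. As deposited, the log2 fold change of Eif5a at 1h was 0.22 and it was not called. Eif5a changed by -2.22 ± 0.12, adjusted p = 1.02e-07 at 48h, a 4.66-fold fall. Dhps and Dohh, the enzymes that make hypusine, fell as well, by 1.21 ± 0.32 and 2.28 ± 0.40 on the log2 scale. Eif6, which keeps the ribosomal subunits apart, was at 11.8, 12.9 and 14.8 at 0h, 11.7, 9.63 and 11.8 at 1h, 8.63, 11.2 and 10.6 at 12h and 4.68, 5.97 and 9.37 at 48h, with all 48h libraries below all 0h libraries (-1.02 ± 0.23, adjusted p = 0.00303). Eif5a2 had a mean near 0 and was not tested, nor was Eif2c5, which fits the symbol rule by name only and was listed at 0 throughout.

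The changes built up over time. At 1h 7 members fell (4.92% of all genes fell) and none rose (5.42% of all genes rose): Eif4e, Eif4b, Eif3i, Eif3l, Eif5, Eif5a and Eif2ak3. The median over the 53 members was -0.29. That count fell to 1 or 2 when any of the 0h or 1h libraries was left out. With the TPM as deposited, where the median of all genes stood at 0.59, no member fell and 9 rose (Eif1, Eif1a, Eif2ak2, Eif3a, Eif4a1, Eif4ebp2, Eif4g2, Eif4g3 and Eif5b), and 43 of the 53 fold changes went from below 0 to above it. Of all 16415 genes tested on that scale, 3955 rose and 231 fell at 1h. The direction at 1h therefore depended on the scaling. At 12h 25 members fell (14.5% of all genes) and 2, Eif2ak2 and Eif4e3, rose (16% of all genes), with a median of -0.55. On the deposited scale, where the median of all genes at 12h was 0.34, 4 fell and 5 rose, and the 4 were Eif1ad, Eif4a3, Eif3m and Eif4b. Of all 16415 genes, 1283 fell and 3662 rose there at 12h. At 48h the deposited scale gave 42 members lower and 2 higher, with a median of all genes of -0.18 and a member median of -1.43. It gave 4466 of all 16415 genes lower and 2611 higher. The 7 called lower on that scale alone were Eif2ak4, Eif2b4, Eif2d, Eif3j1, Eif4e2, Eif4ebp2 and Eif4g2. Of the 35 falls at 48h, 31 were called under each of 21 alternatives, and 34 members fell without the 4 libraries numbered 3. Earlier calls were less stable, as 4 of the 25 falls at 12h and 0 of the 7 at 1h were called under each alternative. Between 1h and 12h 8 members fell (8.77% of all genes) and 3 rose (11.3%), and between 12h and 48h 23 fell (11.9%) and 3 rose (10.5%).

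**Figure D3:**
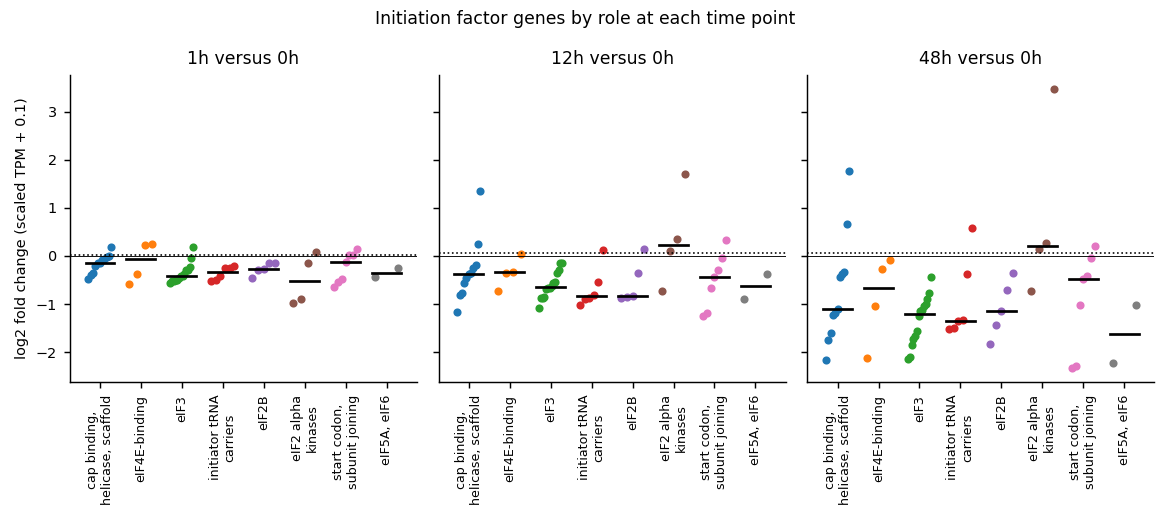
Log2 fold change (vertical axis, scaled TPM + 0.1) of the tested members against 0h at 1h, 12h and 48h, grouped by role on the horizontal axis, with points for genes, black bars for the median of a role and a dotted line for the median of all genes. The median of eIF3 goes from -0.42 at 1h through -0.65 at 12h to -1.20 at 48h, and Eif2ak2 lies apart from the other kinases at 12h and 48h.

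Other genes of translation were described from lists outside the symbol rule (limma log2 fold changes at 48h against 0h, ± SE, for genes that were called). Of 13 tested elongation and termination genes, all 13 fell at 48h, where 22% of all genes tested fell. Their median log2 fold change was -2.12. The elongation factor subunits Eef1d (-2.46 ± 0.23) and Eef1g (-2.34 ± 0.13), the synthetase-associated Eef1e1 (-2.72 ± 0.33) and the selenocysteine factor Eefsec (-2.35 ± 0.23) changed most. Of 20 other helpers of initiation, 11 fell (55%) and 1 rose (5%), against 22% and 24.5% of all genes, with a median of -0.69. Pabpc4, a poly(A)-binding protein, went from a mean of 18.8 to 0.724 scaled TPM (-4.53 ± 0.15). Bzw2, a mimic of eIF5 (-3.36 ± 0.24), Ncbp1, the nuclear cap-binding protein (-1.91 ± 0.17), and Gle1, an mRNA export and translation factor (-1.55 ± 0.26), followed.

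The regulators were mixed. Of 20 genes around mTOR and eIF4E, 6 rose (30%) and 5 fell (25%) with a median of -0.03, shares close to the 24.5% and 22% of all genes. Mknk1 and Mknk2, the 2 kinases that phosphorylate eIF4E, moved in opposite directions. Mknk1 went from a mean of 2.92 to 24.7 scaled TPM (3.06 ± 0.18) and Mknk2 from 36 to 13.9 (-1.41 ± 0.19). Mtor itself fell (-2.21 ± 0.17) and Sesn3, an inhibitor of mTOR complex activity, rose (1.74 ± 0.19). Of 15 tested genes of the integrated stress response, the program set off by phosphorylated eIF2, 7 fell (46.7%) and 6 rose (40%) with a median of -0.29. Psat1 (-3.89 ± 0.20) and Phgdh (-3.63 ± 0.12), enzymes of serine synthesis, and Trib3 (-3.29 ± 0.36), a feedback inhibitor, fell, and the transcription factor gene Atf3 rose (3.33 ± 0.25). Sesn2 is in both of these lists.

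**Figure D4:**
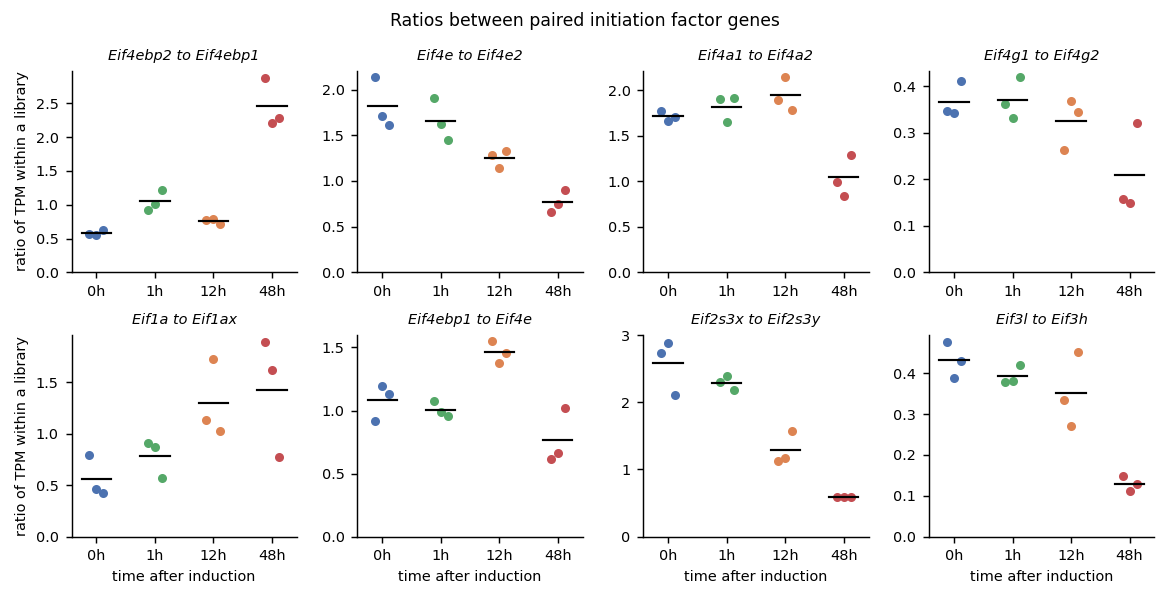
Ratio of TPM between 2 members within each library (vertical axes, starting at 0) by time after induction (horizontal axes), with points for libraries and black bars for the mean of 3. Eif4ebp2 to Eif4ebp1 rises from at most 0.632 at 0h to at least 2.21 at 48h, Eif2s3x to Eif2s3y falls to at most 0.592, and 2 of the 8 ratios have overlapping 0h and 48h values.

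Promoter contacts were listed for most members at all time points. Of the 56 members, 53 had a start site on a bait fragment, and 48, 49, 49 and 48 of them had at least 1 listed contact at 0h, 1h, 12h and 48h (90.6%, 92.5%, 92.5% and 90.6%), where 85.0% to 88.7% of all 23193 genes on baits did. The median number of contacts was 6, 7, 5 and 5, and that over all genes was 5 each time. Each list comes from 1 merged pair of replicates, so contacts have no replicate check and changes in them were not tested.

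Eif4g1, on 4 bait fragments, went from 40 contacts at 0h through 62 and 47 to 14 at 48h, and Eif4a1, on 2, from 29 through 33 and 16 to 7. Of the 35 members that fell in RNA, 23 had fewer listed contacts at 48h than at 0h, 5 as many and 7 more. Of the other 18 on baits, which include the untested Eif4e1b, 10 had fewer and 8 more. The same count was not made over all genes on baits, so these counts have no background. The mean number of contacts went from 10.7 to 8.36 over members on baits and from 9.91 to 9.79 over all genes on baits. A link between RNA and contacts was not tested. Eif5a had 34, 36, 32 and 23 contacts and Eif4ebp1 21, 25, 23 and 17. Eif1ad, which fell most in RNA, had 6, 12, 8 and 17, and Eif2a had 24, 37, 29 and 34. Eif2ak2, the gene that rose most, had 1, 1, 3 and 0. A bait can hold other genes, and those of Eif4a1 also hold the macrophage gene Cd68 and Senp3, so their contacts belong to no single gene. Of the 568 contacts the members had at 0h, 281 were listed again at 48h (49.5%, Wilson 95% interval 45.4% to 53.6%, counting error only), against 56.1% for all genes, and 62.7% were listed again at 1h, against 59.0%. Eif4a1 and Eif5a on chromosome 11 were listed as contacting each other at all 4 time points, as were Eif2b5 and Eif4g1 on chromosome 16.

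Some members share sequence with copies elsewhere. Eif3e, Eif3h, Eif3j2, Eif3m, Eif4a1, Eif4a3 and Eif4ebp3 each share at least 50% of their transcript with another gene at 95% identity or more. The pseudogene Eif4a-ps4, outside the rule, was listed at 56.7, 65.2 and 68.3 scaled TPM at 0h and 30.6, 27.8 and 31.0 at 48h, close to Eif4a1 in each library. How reads were divided between such copies was not tested. Without these 7 genes 29 members fell and 4 rose at 48h.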

How the data were processed

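RNA of the 12 libraries was sequenced by the authors after removal of ribosomal RNA, trimmed with Trim Galore 0.6.2, mapped to mm10 with HISAT2 2.1.0 and summarised with RSEM, per the labels and the study's methods. The deposited values are TPM per gene, which keep no record of depth, so no counting error is given. Each time point has 3 libraries numbered as biological replicates of the 1 line, and p-values measure only the spread between them. Hi-C and ChIP-seq libraries were not used here.

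The deposited Promoter Capture Hi-C lists hold a CHiCAGO score per interaction at 0h and whole numbers of unnamed kind at the other times, made by the authors from 2 merged replicates per time point. The score and the numbers were not compared, only whether a contact was listed. A contact was credited to each gene with a start site on the bait fragment, and 97.9% of the 18175 baits held one.

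TPM were divided by median-of-ratios size factors over the 11246 genes above 0 in every library, the kind of scaling used in the authors' own testing, and log2(value + 0.1) of the 16415 genes with a mean of at least 0.1 TPM was fitted in limma 3.58.1 (R 4.3.3) with all 12 libraries in 1 model of 4 time points and a mean-variance trend. Genes were called at a Benjamini-Hochberg adjusted p below 0.05 over all genes. A fold change on this scale understates that of low genes. The comparisons with 0h share the 0h libraries. Ratios within a library were compared with exact permutation tests on the log2 scale. On simulated data of the same size the fit recovered 80% of 50 genes lowered by a log2 of 2 and 28% of 50 lowered by 1. It also called 10 unchanged genes. Far fewer genes changed there than at 48h here, where 22% of all genes fell and 24.5% rose. The adjustment over all genes was therefore stricter there, and these shares are not recovery rates for the 48h comparison.

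The members and the lists were chosen with earlier results of these data known. Library values are given for members called beyond a log2 fold change of 1, for a fixed set of main subunits and kinases whatever they did, and for some others named after their values were seen, and up to 4 genes per further list are those called with the largest change at 48h. Besides the Pre-B and macrophage markers, 5 granulocyte markers summed to at most 0.683 scaled TPM except at 12h (6.20 to 8.09), 5 T cell markers to at most 0.125, and 5 fibroblast and 5 erythroid markers were at 0 in every library. Start sites and overlaps were taken from GENCODE M21 (GRCm38), promoter letters from RefSeq (GRCm38.p6), and shared transcript sequence from blastn 2.17.0. Alternatives were other scalings, pseudocounts and filters, no trend, only the libraries compared, a replicate block and each library left out, and 5 were added after the data were seen.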

Additional observations from a re-analysis of the deposited data

How the results depend on the processing

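The count of members called lower at 48h against 0h stayed between 29 and 42 under every alternative. With the TPM as deposited, 9 members rose and 0 fell at 1h, 5 rose and 4 fell at 12h, 2 rose at 48h, 17 fell between 1h and 12h, and 1 rose and 41 fell between 12h and 48h. Of all 16415 genes tested on that scale, 3955 rose and 231 fell at 1h, and 3662 rose and 1283 fell at 12h. A further 2611 rose at 48h, 2468 fell between 1h and 12h, and 673 rose and 5205 fell between 12h and 48h. On that scale 43 of 53 members changed sign at 1h against 0h, and the 8 of them called on one scale or the other went to log2 fold changes of 0.64 for Eif4g2 (limma adjusted p = 0.0410), 0.60 for Eif4a1 (adjusted p = 0.0279), 0.26 for Eif4b, 0.22 for Eif5a, 0.17 for Eif4e, 0.15 for Eif3i, 0.15 for Eif3l and 0.019 for Eif5, the last 6 with adjusted p of 0.245 to 0.962. Quantile normalization left 1 fall at 1h and 1 rise between 12h and 48h, and no trend left 1 fall at 1h, 2 falls between 1h and 12h and 1 rise between 12h and 48h. No filter left 4 falls at 1h, a mean of at least 1 TPM left 1 rise at 12h, and the fit of only the 6 libraries compared left 1 rise between 12h and 48h. A scaling without the 20 most abundant genes, added after the data were seen, gave 0 falls at 1h, 15 at 12h, 5 between 1h and 12h and 1 rise between 12h and 48h. Leaving out the 4 libraries numbered 3, also added later, gave 0 falls at 1h and 4 between 1h and 12h. Without the members that have a near-identical copy, also added later, 5 fell between 1h and 12h.

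Leaving out 1 library at a time gave 1 to 10 falls at 1h, with 1 or 2 without any 0h or 1h library, and 2 to 12 falls between 1h and 12h, with 2 to 4 without any 1h or 12h library. It gave 1 to 3 rises between 12h and 48h, with 1 without 0h replicate 1 or 3, 1h replicate 1, 12h replicate 1 or 2, or 48h replicate 1 or 2. No ratio changed direction. The cause of these shifts was not tested.

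The replicate numbers were shared across time points, and the labels tie them to no batch. The deposited column names number all libraries of replicates 1 and 2 before those of replicate 3, and the meaning of this order is not stated. Same-numbered libraries correlated in their deviations by -0.01 to 0.26 over 18 pairs (median 0.080), and others by -0.18 to 0.10 over 36 (median -0.063). For replicate 3 this was 0.081 to 0.26, with 5 of 6 pairs over 0.1, and -0.18 to -0.0089 with other numbers, so those 4 libraries deviated together. For replicates 1 and 2, 2 and 0 of 6 pairs passed 0.1, and 5 of 12 libraries correlated best with their own number at every other time point, so the numbers were not taken as pairs. With a replicate block 8 members fell at 1h, 29 at 12h and 37 at 48h, 8 fell between 1h and 12h, and 26 fell and 2 rose between 12h and 48h, none over 1.5 times from the values without it. TPM keep no depth, so what counting error adds to low members such as Eif4ebp3 and Eif3j1 is unknown. With contacts limited to 1 Mb, 86.8% to 92.5% of members on baits had a listed contact.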
